A study of Homo sapiens with 6 samples.

Results

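Erianin, a natural compound from Dendrobium, was tested for its effect on 9 genes that are read as outputs of p53 and of genotoxic stress in CAL62, an established anaplastic thyroid carcinoma (ATC) cell line. The 9 genes were MDM2, GADD45A, GADD45B, GADD45G, BTG2, SESN1, ZMAT3, TP53I3 and PLK3, taken by Ensembl identifier from 38259 identifiers with a symbol, and each identifier stood on 1 row of the tables. Cells received 50 nM erianin (3 libraries) or the solvent DMSO at an equal concentration (3 libraries) for 48 h, and the label gives the genotype of both groups as WT. RNA sequencing of total RNA gave 25776301 to 34107727 reads counted on genes per library. The labels number the replicates without saying how the cultures were separated, so the p-values measure the spread between these libraries.

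The p53 protein is a transcription factor that binds a repeated decamer in DNA and switches on genes for cell cycle arrest, DNA repair, metabolism and death. MDM2 is its best known feedback target, a ubiquitin ligase that marks p53 for degradation. GADD45 proteins are small stress-response proteins that bind PCNA, CDK1 and the kinase MAP3K4, through which they feed p38 and JNK signaling, and their genes also answer to transcription factors other than p53, among them FOXO, ATF4, EGR1 and NF-kB proteins.

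The promoters are shown first, because the sites at the members' starts differ. RefSeq windows of 250 bases upstream of a transcript start (GRCh38.p14) matched 8 of the 9 genes, all but GADD45A. They were searched on both strands for the p53 decamer, alone or as a pair at most 13 bases apart with the central C and G of each kept and at most 3 other mismatches, for the cAMP response element TGACGTCA, the ATF4 composite element TGATGNAA, the AP-1 site TGANTCA, the CCAAT box CCAAT and the GC box GGGCGG. Capitals mark every decamer pair, ATF4 composite element and AP-1 site found. GADD45B lies on chromosome 19 (chr19:2475877-2476126, plus strand), GADD45G on chromosome 9 (chr9:89604762-89605011, plus strand), the downstream start of MDM2 on chromosome 12 (chr12:68808767-68809016, plus strand), and the SESN1 site is upstream of an internal start (chr6:109009013-109009042, minus strand). In the GENCODE annotation the MDM2 window lies inside the gene, with 15 of its 250 bases in an exon and the rest intronic, the SESN1 window is intronic, GADD45B has 5 exonic bases at its end and GADD45G is upstream of the gene.
GADD45B: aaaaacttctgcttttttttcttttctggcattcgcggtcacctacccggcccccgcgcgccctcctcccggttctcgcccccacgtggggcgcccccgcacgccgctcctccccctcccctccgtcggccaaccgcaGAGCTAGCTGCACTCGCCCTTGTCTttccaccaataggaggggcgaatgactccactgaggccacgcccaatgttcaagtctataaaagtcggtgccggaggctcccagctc
GADD45G: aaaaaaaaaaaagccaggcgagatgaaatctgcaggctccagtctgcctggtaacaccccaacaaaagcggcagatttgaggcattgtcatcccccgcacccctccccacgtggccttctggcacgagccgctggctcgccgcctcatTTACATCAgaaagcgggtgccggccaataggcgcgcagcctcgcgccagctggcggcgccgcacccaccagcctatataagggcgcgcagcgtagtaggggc
MDM2: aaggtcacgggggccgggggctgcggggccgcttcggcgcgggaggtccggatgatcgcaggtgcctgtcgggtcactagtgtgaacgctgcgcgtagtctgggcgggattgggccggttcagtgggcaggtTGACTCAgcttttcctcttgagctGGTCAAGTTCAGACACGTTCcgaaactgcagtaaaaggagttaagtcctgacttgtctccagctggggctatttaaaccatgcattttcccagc
SESN1: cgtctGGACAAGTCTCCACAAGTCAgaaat
An exact decamer was found in SESN1, 49 to 40 bases before the start, as part of a pair with 3 mismatches, and such a decamer is present in 5.57% of all 35116 windows. The MDM2 pair, 94 to 75 bases before the start, had 2 mismatches, and the GADD45B pair, 112 to 88 bases before the start, had 3. A pair within these limits is present in 10.7% of all windows. The upstream window of ZMAT3 held a pair with 3 mismatches as well, while those of BTG2, GADD45G, PLK3 and TP53I3 held none. GADD45G and PLK3 each had an ATF4 composite element (3.14% of all windows), at 102 to 95 and 133 to 126 bases before the start, and MDM2 an AP-1 site (6.57%), which does not overlap its pair. A CCAAT box, present in 32.0% of all windows, stood in GADD45B, GADD45G, BTG2, ZMAT3, SESN1 and MDM2 and, where it overlaps its own reverse match at the upstream MDM2 start, was counted on both strands. GC boxes (42.6%) stood in PLK3, BTG2, ZMAT3, SESN1 and MDM2. No window held the cAMP response element (1.65%). These matches describe the letters only, and binding was not measured. A site beyond the 250 bases, or outside the limits of the search, would not be found. A window without a match therefore does not mean a gene without a site.

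Levels were read as CPM, counts scaled to library size with edgeR's TMM factors. DMSO replicate 3 stood apart from the other DMSO libraries. Its mean Euclidean distance to them in log2 CPM was 63.5, against 37.2 between DMSO replicates 1 and 2 and 28.2 to 29 among the erianin libraries. Across 12686 genes with a known transcript, the deviation of DMSO replicate 3 correlated with transcript GC content at -0.351, that of DMSO replicates 1 and 2 at 0.334 and 0.424, and those of the erianin libraries at between -0.141 and -0.0931, so that genes with little GC read higher in DMSO replicate 3. The values of the 9 genes are therefore given with and without that library. Leaving it out lowered the common coefficient of variation in edgeR from 0.139 to 0.0421. The smaller standard errors and p-values of that fit follow from this removed spread and are not stronger evidence. Of the cell type markers, the thyroid factor PAX8 was at 645, 642 and 739 CPM with DMSO. TSHR and NKX2-1 had 0 reads in all 6 libraries, and TG and SLC5A5 stayed below 1 CPM. Of the epithelial markers, the keratins KRT8, KRT18 and KRT19 were at 1182 to 1556, 760 to 993 and 348 to 563 CPM with DMSO. EPCAM was at 17.7 to 20.5 CPM with DMSO. The epithelial marker CDH1 went the other way and stayed below 1 CPM, with 0 to 9 reads per library. PTPRC, CD68, PECAM1 and ALB, markers of other cell types, also stayed below 1 CPM, while COL1A1, the remaining gene of that list, was at 32.0 to 36.1 CPM with DMSO and 26.7 to 29.4 CPM with erianin (log2 fold change -0.32, edgeR adjusted p = 0.0613). Summed over 7 thyroid markers, nearly all of it PAX8, the level was 644 to 741 CPM with DMSO and 421 to 435 CPM with erianin, and the 2 mesenchymal markers FN1 and VIM summed to 6423 to 8322 CPM with DMSO and 4026 to 4572 CPM with erianin. FN1 was called lower, at -0.80 (edgeR adjusted p = 0.00761), and VIM was at -0.47 (edgeR adjusted p = 0.03), with no overlap between the groups for either. The part of these markers in the results below was not tested. In bulk RNA, a change in the number of cells of 1 kind and a change in RNA per cell cannot be told apart.

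The 3 GADD45 genes and BTG2 were upregulated, and the other 5 genes did not pass both thresholds, a log2 fold change beyond 0.5 in size together with a Benjamini-Hochberg adjusted p under 0.05 in edgeR's quasi-likelihood test. All 9 genes passed the filter on low counts. The 4 upregulated of 9 stand beside 5.37% of the 12821 genes tested, 688 in number, that were called higher, and none of the 9 was called lower, beside 3.36% (431 genes). The 9 genes were chosen with earlier results of these data known. The shares of all genes given here are therefore a description and not a test of the set. At an unadjusted p under 0.05 edgeR had 8 higher and 0 lower, beside 15.3% and 15.6% of all genes tested, and DESeq2 called 5 higher and 0 lower, beside 5.75% and 3.62% of the genes it tested. The split of calls over all genes depended on the scaling, with 822 higher and 299 lower for upper-quartile factors, 665 and 669 with the GC offset and 1098 and 94 on the log2(TPM + 1) scale. The median log2 fold change was 0.77 over the 9 genes and 0.00 over all genes tested. Every erianin library was above every DMSO library for 7 of the 9 genes, beside 19.5% of all genes tested. The direction was higher in all 20 fits made for each of the 9 genes. With DMSO replicate 3 left out, 7 of the 9 were called higher, and 0 lower, beside 11.4% and 6.11% of the genes tested, because MDM2, SESN1 and ZMAT3 then passed.

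**Figure D1:**
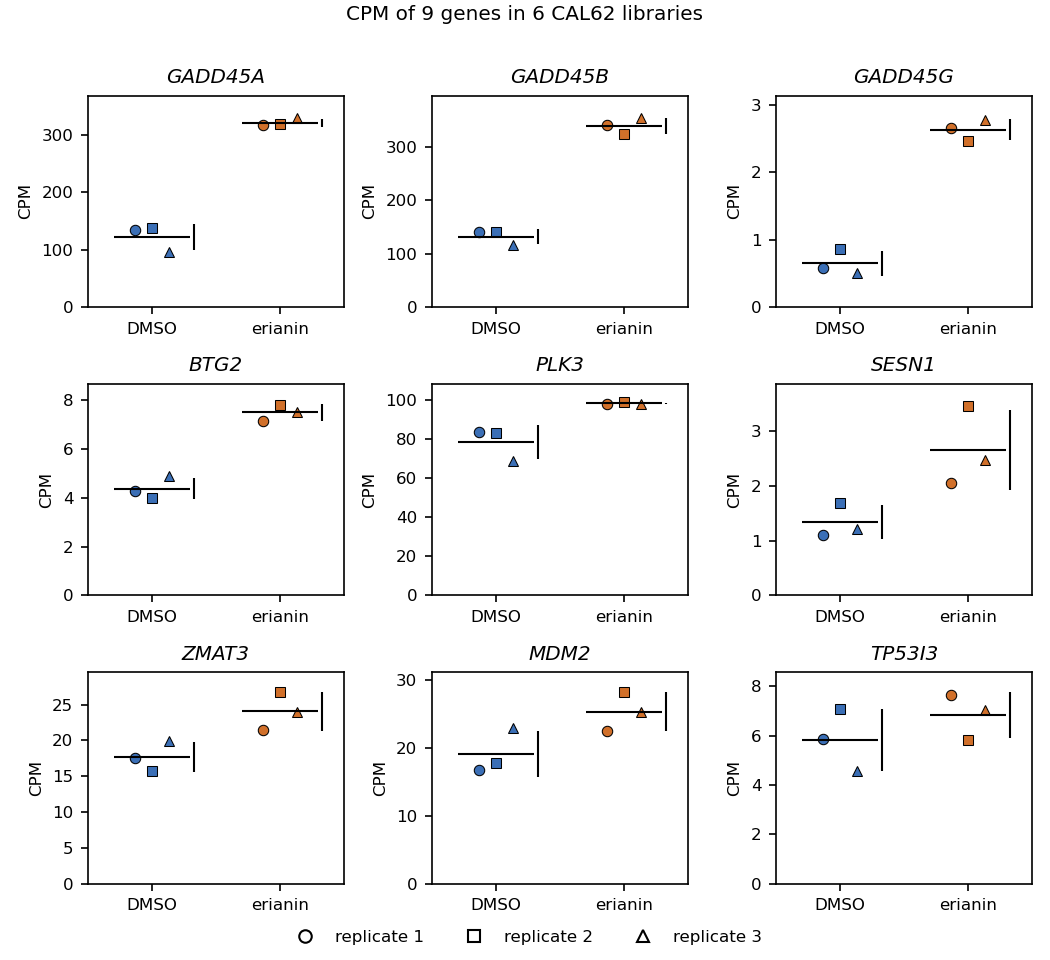
CPM (linear axis from 0) of each of the 9 genes in the 3 DMSO and 3 erianin libraries. Points are single libraries with the marker giving the replicate number, horizontal lines are means and vertical lines the SD (n = 3). The groups are separate for all genes but MDM2 and TP53I3, and DMSO replicate 3 (triangle) is the lowest DMSO library for the GADD45 genes, PLK3 and TP53I3 and the highest for BTG2, ZMAT3 and MDM2.

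GADD45A (ENSG00000116717, chromosome 1, 67685061 to 67688338, GENCODE release 29 on GRCh38) had 135, 137 and 95.8 CPM in DMSO replicates 1 to 3 and 316, 319 and 329 CPM with erianin. The lowest erianin value is thus well above the highest DMSO value. The means were 122 ± 23.1 and 321 ± 6.89 CPM (SD, n = 3 each). On the log2 scale the change was 1.39 with a standard error of 0.14 (edgeR adjusted p = 0.00205). Leaving out DMSO replicate 3 gave 1.24 with a standard error of 0.04 (edgeR adjusted p = 1.35e-21). GADD45A passed both thresholds in all 19 alternative fits, with values from 1.22 to 1.61.

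GADD45B (ENSG00000099860, chromosome 19, 2476122 to 2478259) had 141, 140 and 116 CPM with DMSO and 340, 324 and 354 CPM with erianin. Here too the groups were far apart compared with the spread within them. Its log2 fold change was 1.36 (standard error 0.09, edgeR adjusted p = 0.000903), and 1.27 (standard error 0.05) without DMSO replicate 3. All 19 alternative fits called it.

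GADD45G (ENSG00000130222, chromosome 9, 89605013 to 89606555) is the scarce member of the family in these cells, with 14, 28 and 16 reads with DMSO and 91, 86 and 97 reads with erianin, or 0.650 ± 0.186 and 2.63 ± 0.156 CPM (SD, n = 3 each). Its change on the log2 scale, 2.0 with a standard error of 0.24 (edgeR adjusted p = 0.00402), was the largest of the 9 genes and rests on the fewest DMSO reads. Without DMSO replicate 3 it was 1.83 (standard error 0.28). GADD45G was called in all 19 alternative fits, at 1.65 to 2.27.

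TPM, which the authors scaled by gene length and library total, allows the members to be set beside each other within a group. The deposited TPM summed to less in every DMSO library than in any erianin library. Increases with erianin therefore read larger in TPM than in CPM, and decreases read smaller or vanish. In TPM, GADD45A averaged 145 with DMSO and 433 with erianin, GADD45B 129 and 378, and GADD45G 1.41 and 6.49. GADD45A and GADD45B did not differ beyond their spread with DMSO, where their libraries overlapped, and were separate with erianin. Within a library, the ratio of GADD45A to GADD45B in TPM was 1.15, 1.19 and 1.0 with DMSO and 1.12, 1.19 and 1.13 with erianin, and the groups overlapped. The ratio of GADD45A to GADD45G was 128, 86.7 and 102 with DMSO and 64.9, 70.9 and 65.0 with erianin, with no overlap, though 3 against 3 libraries cannot give an exact permutation p under 0.10. After the GADD45 pair came PLK3, at 50.6 TPM with DMSO and 72.3 with erianin. With DMSO the order went on with ZMAT3 (7.94 TPM), BTG2 (6.45), TP53I3 (5.58), MDM2 (2.68), GADD45G (1.41) and SESN1 (0.686), where only BTG2 and TP53I3 overlapped. With erianin it was BTG2 (12.7 TPM), ZMAT3 (12.4), TP53I3 (7.45), GADD45G (6.49), MDM2 (4.10) and SESN1 (1.56), where BTG2 overlapped ZMAT3 and TP53I3 overlapped GADD45G.

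The antiproliferative gene BTG2 (ENSG00000159388, chromosome 1, 203305491 to 203309602), whose product recruits mRNA deadenylases, had 4.27, 4.0 and 4.88 CPM with DMSO and 7.14, 7.81 and 7.53 CPM with erianin. The groups were separate, and DMSO replicate 3 was the highest DMSO library. The log2 fold change was 0.77 (standard error 0.13, edgeR adjusted p = 0.0111), and 0.86 without DMSO replicate 3 (edgeR adjusted p = 4.3e-06). BTG2 did not pass without erianin replicate 1, 2 or 3, with edgeR adjusted p-values of 0.0580, 0.0689 and 0.0663 and log2 fold changes of 0.74 to 0.80.

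SESN1 (ENSG00000080546, chromosome 6, 108986437 to 109094819), a sestrin that restrains mTORC1, had 27, 55 and 38 reads with DMSO and 70, 121 and 87 reads with erianin. In CPM these were 1.11, 1.69 and 1.22 against 2.05, 3.46 and 2.48, with no overlap but a wide spread in both groups. The log2 fold change of 0.98 (standard error 0.27) had an edgeR adjusted p of 0.0501, just outside the threshold. It passed in 9 of 19 alternative fits, among them that without DMSO replicate 3 (0.89, edgeR adjusted p = 0.00447) and DESeq2 (0.97, DESeq2 adjusted p = 0.0192), and adjusted p-values over all alternatives ran from 0.00447 to 0.177.

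MDM2 (ENSG00000135679, chromosome 12, 68808176 to 68850686) had 16.7, 17.7 and 22.9 CPM with DMSO and 22.5, 28.2 and 25.2 CPM with erianin. DMSO replicate 3 overlapped the erianin group. The log2 fold change was 0.41 (standard error 0.15, 95% interval 0.05 to 0.76, edgeR adjusted p = 0.115). ZMAT3 (ENSG00000172667, chromosome 3, 179017223 to 179072279), an RNA-binding zinc finger protein that acts on splicing, had 17.6, 15.7 and 19.9 CPM with DMSO and 21.4, 26.8 and 24.0 CPM with erianin. Its groups were separate by a narrow margin, and the log2 change was 0.44 with a standard error of 0.13 (edgeR adjusted p = 0.0625). Without DMSO replicate 3 both genes passed, MDM2 at 0.55 (edgeR adjusted p = 3.3e-06) and ZMAT3 at 0.54 (edgeR adjusted p = 8.31e-06). When the GC trend of each library was removed as well, these values became 0.32 for MDM2 and 0.24 for ZMAT3, under the fold-change threshold, with edgeR adjusted p-values of 0.0023 and 0.0211. The longest MDM2 and ZMAT3 transcripts, at 41.9% and 39.5% GC, are among the 3 lowest of the 9 genes. An overlapping gene on the opposite strand of MDM2, carboxypeptidase M, had 38 to 95 reads, beside 406 to 987 for MDM2, and the strand setting of the counting is not given in the sources used here.

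The kinase gene PLK3 (ENSG00000173846, chromosome 1, 44800225 to 44805990), of the polo-like family, had 83.8, 83.3 and 68.7 CPM with DMSO and 98.1, 98.8 and 98.0 CPM with erianin. The groups were separate and the erianin libraries nearly equal. The log2 fold change was small, 0.32 (standard error 0.09, edgeR adjusted p = 0.0582), and 0.23 without DMSO replicate 3 (edgeR adjusted p = 0.000127). TP53I3 (ENSG00000115129, chromosome 2, 24077433 to 24085861), a quinone oxidoreductase also called PIG3, had 5.87, 7.08 and 4.56 CPM with DMSO and 7.67, 5.81 and 7.05 CPM with erianin, so the groups overlapped. Its log2 fold change was 0.23 (standard error 0.19, 95% interval -0.22 to 0.68, edgeR adjusted p = 0.473) and 0.06 without DMSO replicate 3, and none of 19 alternative fits called it (lowest adjusted p = 0.204). FAM228B, which overlaps TP53I3 on the opposite strand, had 16 to 41 reads, beside 142 to 262 for TP53I3.

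**Figure D2:**
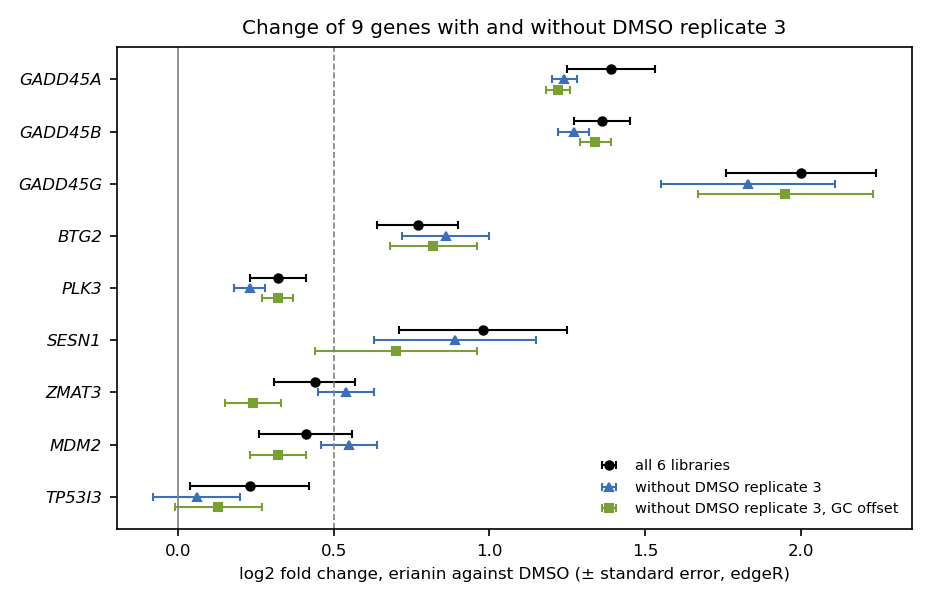
Log2 fold change (x axis, erianin against DMSO, edgeR) of the 9 genes with bars of 1 standard error, for all 6 libraries, without DMSO replicate 3, and without DMSO replicate 3 with the GC trend removed. The dashed line marks the threshold of 0.5, which the GADD45 genes, BTG2 and SESN1 exceed in all 3 fits and which MDM2 and ZMAT3 exceed only without DMSO replicate 3 and without the GC offset.

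The 9 genes differed in which way DMSO replicate 3 departed from DMSO replicates 1 and 2. On the log2 scale it lay 0.42 above their mean for MDM2, 0.26 for ZMAT3 and 0.24 for BTG2. For the other 6 it lay below, with differences of -0.51 for TP53I3, -0.50 for GADD45A, -0.48 for GADD45G, -0.28 for GADD45B and PLK3 and -0.20 for SESN1. The 4 transcripts with the highest GC content, GADD45G, PLK3, GADD45B and TP53I3 at 58.4% to 63.9%, were all among those below. SESN1, at 43.4%, lay below the mean as well, but its 1.22 CPM in DMSO replicate 3 stood between replicates 1 and 2 (1.11 and 1.69). BTG2 and GADD45A, at 50.3% and 51.5%, lay on opposite sides. The part of GC content in the values of that library was not tested beyond the GC offset. With the offset and all 6 libraries, the 3 GADD45 genes and BTG2 passed at 1.36, 1.35, 2.01 and 0.73.

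**Figure D3:**
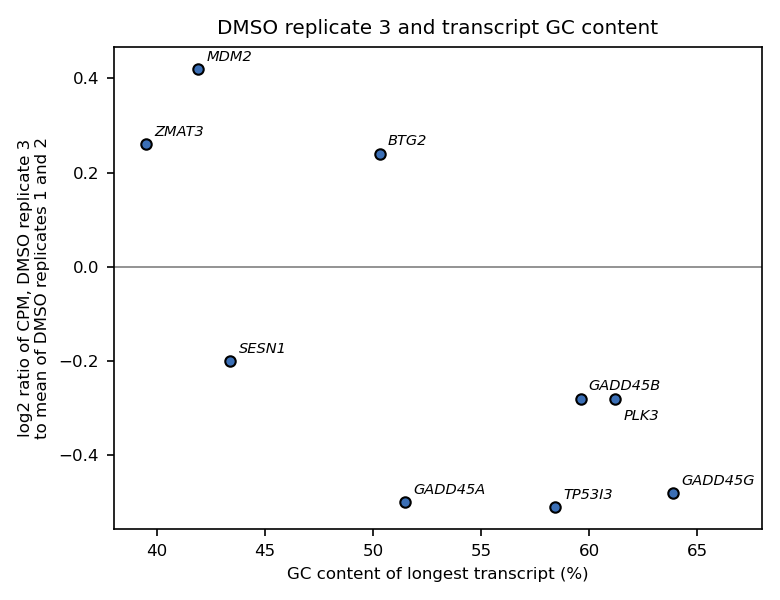
Log2 ratio of CPM in DMSO replicate 3 to the mean of DMSO replicates 1 and 2 (y axis) against the GC content of the longest transcript in percent (x axis) for the 9 genes, each a point. MDM2, ZMAT3 and BTG2 are above 0 and the other 6 genes below.

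Other p53 targets were examined next. For this and each later list, the background is the share of all genes tested. By edgeR 5.37% were called higher and 3.36% lower, or 11.4% and 6.11% without DMSO replicate 3. By DESeq2 the shares were 5.75% and 3.62%. At an unadjusted p under 0.05 in edgeR they were 15.3% and 15.6%. Of 31 other p53 targets 29 were tested, and 2 were called higher and 0 lower by edgeR and by DESeq2, with 7 higher and 0 lower at an unadjusted p under 0.05. Their median log2 fold change was 0.10, beside 0.00 for all genes tested, and 0.02 without DMSO replicate 3, where it was also 0.02 for all genes. Those called were PLK2, at 0.93 (edgeR adjusted p = 0.00213), and RRM2B, a ribonucleotide reductase subunit for DNA repair, which averaged 16.4 ± 2.16 CPM with DMSO and 23.8 ± 1.01 CPM with erianin (SD, n = 3 each), 0.54 on the log2 scale (edgeR adjusted p = 0.0246). RRM2B was under the fold-change threshold with the GC offset, at 0.35, and of the 6 fits that leave out a library it passed only without DMSO replicate 3 (edgeR adjusted p from 7.35e-08 to 0.116). CDKN1A, the p21 inhibitor of cyclin-dependent kinases, had 214, 226 and 145 CPM with DMSO and 213, 230 and 231 CPM with erianin. Its groups overlapped, with a log2 fold change of 0.20 (95% interval -0.16 to 0.57, edgeR adjusted p = 0.433) and of 0.02 without DMSO replicate 3. Without DMSO replicate 3, FAS and TIGAR were called higher and FDXR lower in addition, 3 genes named after their values were seen. When the GC offset was added to that fit, FAS was still called, while TIGAR, at 0.35, and FDXR, at -0.41, were not. The ratio of GADD45A to CDKN1A in TPM, which no scaling between libraries can alter, was 1.41, 1.36 and 1.48 with DMSO and 3.33, 3.11 and 3.20 with erianin, with no overlap. The ratio of GADD45B to CDKN1A was 1.22, 1.15 and 1.48 with DMSO and 2.96, 2.61 and 2.84 with erianin, and that of GADD45A to MDM2 was 67.4, 64.4 and 34.8 with DMSO and 117, 94.0 and 109 with erianin. The groups did not overlap in either, and DMSO replicate 3 was the highest DMSO library in the former and by far the lowest in the latter.

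Close relatives of the members behaved unevenly. Of 14 relatives 11 were tested, and 2 were called higher and 0 lower by edgeR and by DESeq2, with 4 higher and 1 lower at an unadjusted p under 0.05 and a median log2 fold change of 0.31, or 0.37 without DMSO replicate 3. PLK2, a polo-like kinase known from the early response to serum and stress, had 109, 106 and 130 CPM with DMSO and 224, 221 and 214 CPM with erianin (log2 fold change 0.93, edgeR adjusted p = 0.00213). The mitotic kinase PLK1 was at -0.19, and PLK4, which drives centriole duplication, at 0.31 (edgeR adjusted p = 0.226 and 0.478). The PLK1 value was 0.01 on the log2(TPM + 1) scale. BTG3 was the other relative called, from 12.8 ± 1.28 to 18.8 ± 0.261 CPM (SD, n = 3 each), at 0.55 (edgeR adjusted p = 0.0168), and at 0.43 with the GC offset. Of the fits that leave out a library, BTG3 passed only without DMSO replicate 3 (edgeR adjusted p from 5.18e-07 to 0.0888). BTG1, TOB1 and TOB2, also of the BTG family, were at 0.49, 0.42 and -0.21 and did not pass. Of the sestrins, SESN2, an ATF4 and p53 target, was at 0.08 (edgeR adjusted p = 0.676) with 72.3 to 96.1 CPM with DMSO and 87.0 to 90.2 CPM with erianin, and SESN3 was below the filter. MDM4, the partner of MDM2, was at 0.15 (edgeR adjusted p = 0.484). CRYZ and VAT1, oxidoreductase relatives of TP53I3, were at 0.39 and 0.05. TOB1 and PLK4 passed as well without DMSO replicate 3, at 0.73 and 0.69. When the GC offset was added to that fit, TOB1 was at 0.50 and PLK4 at 0.38, and neither passed.

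**Figure D4:**
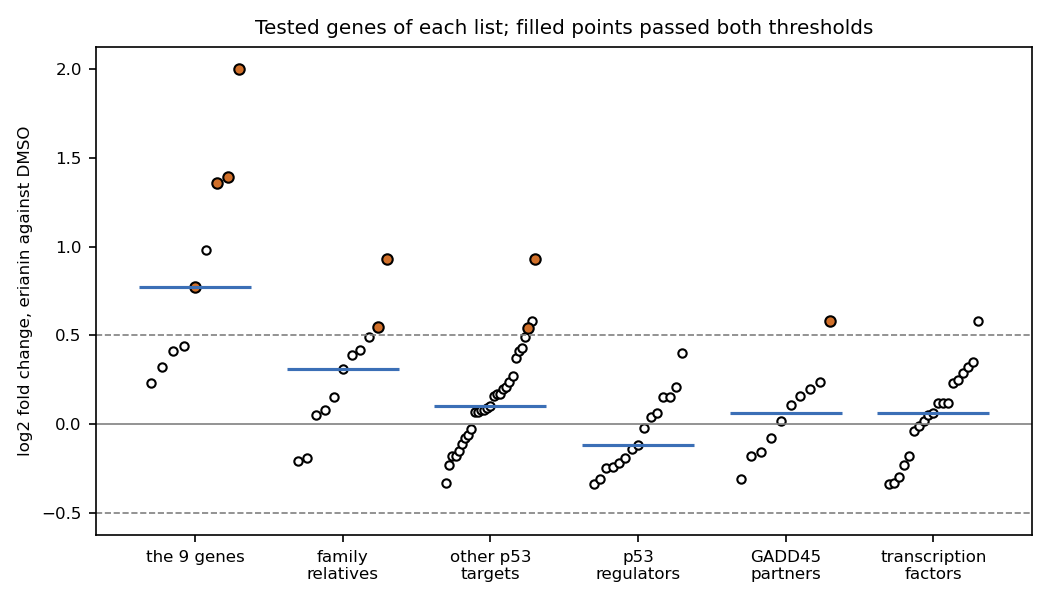
Log2 fold change (y axis, erianin against DMSO, edgeR, all 6 libraries) of each tested gene on 6 lists, ordered by value within a list. Filled points passed both thresholds, blue lines are medians and dashed lines mark 0.5 and -0.5. Medians are 0.77 for the 9 genes and between -0.12 and 0.31 for the other lists.

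Of the p53 regulators reported here none was called by edgeR with all 6 libraries. Of these 18 regulators 15 were tested, with 0 higher and 0 lower by edgeR and by DESeq2, 1 higher and 3 lower at an unadjusted p under 0.05, and a median of -0.12, or 0.02 without DMSO replicate 3. Of 10 genes for binding partners of GADD45 proteins, all tested, TDG alone was called higher and 0 lower by edgeR, with 2 higher and 1 lower at an unadjusted p under 0.05, 1 higher and 0 lower by DESeq2, and a median of 0.07, or 0.05 without DMSO replicate 3. TDG, a DNA glycosylase, changed from 11.1 ± 1.28 to 16.6 ± 0.984 CPM (SD, n = 3 each), at 0.58 (edgeR adjusted p = 0.0204), and was at 0.41 with the GC offset. It too passed only without DMSO replicate 3 when a library was left out (edgeR adjusted p from 6.02e-07 to 0.105).

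The transcription factors known to act on GADD45 genes were called in 0 of 19 cases in either direction by edgeR. At an unadjusted p under 0.05, 3 were higher and 3 lower, DESeq2 called 0 in either direction, and the median log2 fold change was 0.06. Without DMSO replicate 3, 2 were called higher and 0 lower, with a median of 0.09. With no fold threshold, which 7.22% of all genes pass as higher and 7.69% as lower, STAT3 was higher, at 0.29, and ATF4 and SMAD3 lower, at -0.34 and -0.33 (edgeR adjusted p = 0.0286, 0.0233 and 0.0275), 3 genes named after their values were seen. These are transcript levels, and the activity of the factors was not measured.

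The genes whose log2 CPM followed GADD45A most closely over the 6 libraries, among 8542 genes with a mean of at least 10 CPM, were KRT17, VGF and RHOB, with Pearson correlations of 0.9997, 0.9983 and 0.9983. For GADD45B they were CCNG2, ARC and DUSP1, at 0.9990, 0.9985 and 0.9981. The correlations describe 6 libraries in 2 groups and share their depth and the treatment. KRT17 encodes a keratin, VGF a neurosecretory protein, RHOB a small GTPase, CCNG2 an atypical cyclin, ARC an immediate-early protein and DUSP1 a MAP kinase phosphatase. Their log2 fold changes were 1.52, 2.78, 1.51, 0.56, 4.60 and 1.55, and each passed both thresholds, CCNG2 in 13 of 19 alternative fits.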

How the data were processed

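Total RNA of CAL62 cells was extracted with TRIzol and sequenced in 3 DMSO and 3 erianin libraries. The submitters' processing notes name fastp 0.23.2, STAR 2.7.10, featureCounts 2.0.1 and StringTie 2.2.1 and the build GRCh38, and the strand setting is not given in the sources used here. Raw counts over 65807 rows and TPM values, which the authors scaled by length and library total, were deposited. Rows without an identifier (26480, 0.00385% to 0.00515% of the counts) were left out. Where an identifier stood on several rows (159), the row with most counts was kept. Library totals of 25776301 to 34107727 reads limit precision for SESN1 and GADD45G.

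Counts were tested with edgeR 4.0.16 (filterByExpr, TMM, quasi-likelihood, R 4.3.3) over 12821 genes with Benjamini-Hochberg adjustment, with calls at an adjusted p under 0.05 and a log2 fold change beyond 0.5 in size. Alternatives were DESeq2 1.42.0, other factors and filters, limma 3.58.1 on log2(TPM + 1) or log2(TPM + 0.1), a replicate block, an offset for transcript GC content, and leaving out each library. The deposited TPM values, over all rows, summed to 59.1% to 78.3% of the total to which TPM is scaled. In a simulation with 200 changed genes, edgeR tested 12820 genes and recovered 99 changed 2-fold and 100 changed 4-fold, with 1 false call. With a GC trend in 1 simulated DMSO library it recovered 97 and 100, with 5 false calls. The simulated spread between libraries was fixed. It was smaller than with all 6 libraries (common coefficient of variation 0.139) and larger than without DMSO replicate 3 (0.0421). The simulation therefore does not measure performance with a library like DMSO replicate 3. The members and lists were chosen with earlier results of these data known. Named genes were the members, their tested relatives, CDKN1A, up to 4 called genes of each other list averaging 1 CPM or more, and the 3 genes nearest to GADD45A and to GADD45B. Genes outside this rule are said to be chosen after their values were seen, and the cell type markers were taken from their own lists. Some genes of the lists are not reported here, and the list counts leave them out. Promoter windows came from RefSeq (GRCh38.p14) and gene positions from GENCODE release 29.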

Additional observations from a re-analysis of the deposited data

How the results depend on the processing

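GADD45A, GADD45B and GADD45G passed both thresholds in all 19 alternative fits, BTG2 in 16, SESN1 in 9, ZMAT3 in 4, PLK3 in 3, MDM2 in 2 and TP53I3 in 0. The members called higher numbered 4, and 7 with limma on log2(TPM + 0.1), and 3 to 7 when a library was left out. With limma on log2(TPM + 1), on log2(TPM + 0.1) and on log2(TPM + 1) without a filter, the counts were 5, 5 and 4 for other p53 targets called higher (2 in the reported fit), 1, 1 and 0 for p53 regulators called higher (0), 1, 1 and 1 for transcription factors called higher (0), 1098, 1207 and 1057 for all genes called higher (688) and 94, 110 and 88 for all genes called lower (431). These TPM scales put the median log2 fold change of all genes at 0.175, 0.197 and 0.117. Without the fold-change threshold 1 transcription factor was higher, 2 were lower and 986 of all genes were lower.

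The deviations of same-numbered libraries from their group means correlated at 0.00138, 0.0253 and -0.0329, which shows no pairing by number. DMSO replicate 3 shapes the deviations of all DMSO libraries, so these values cannot exclude a pairing. With the replicate block 384 genes were called higher and 281 lower, and the block left 1 other p53 target, 1 relative and 0 GADD45 partners called higher. The GC offset, and the replicate block with the GC offset, also left 1, 1 and 0. The GC offset gave 669 genes called lower. Without DMSO replicate 3 and with the GC offset, 1 p53 target was called lower, 1 relative, 0 partners and 1 transcription factor higher, and 804 genes lower. Leaving out each library gave 1 to 4 other p53 targets higher and 0 to 1 lower, 1 to 4 relatives higher, 0 to 1 regulators higher, 0 to 1 partners higher, 0 to 2 transcription factors higher, 172 to 1485 of all genes higher and 126 to 797 lower. Direction turned for MDM4 (-0.02) and BTG1 (-0.00) with the GC offset without DMSO replicate 3, for SESN2 (-0.03) without DMSO replicate 3, for VAT1 in these fits (-0.03 and -0.10) and for PLK1 on the TPM scales (0.01). Of the other values for named genes, 484 kept direction and call, 23 gained a call and 36 lost one. Values with a library left out ran from -0.03 to 0.18 for SESN2 and from -0.10 to 0.15 for VAT1. The cause of these shifts was not tested.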
